A study of Mus musculus with 12 samples.

Results

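Wnt ligands, their Frizzled receptors and their secreted inhibitors were followed in adipocytes grown from mice with a changed PPARγ, the nuclear receptor that drives fat cell formation. The genes were taken by name: every gene whose symbol starts with Wnt, Fzd, Sfrp or Dkk followed by a digit, which gave 37 of the 55573 genes in the count table, namely 19 Wnt, 10 Fzd, 4 Sfrp and 4 Dkk genes. The cells were the stromal vascular fraction of subcutaneous fat, differentiated in culture and harvested on day 8. They came from WT littermates and from global knock-in mice made by CRISPR-Cas9 on the C57BL/6 strain, so that each cell type of a mutant animal carried the change from before birth. WT mice kept the threonine of PPARγ on both alleles, TA mice were homozygous for alanine in its place (T166A), which cannot be phosphorylated, and TD mice were homozygous for aspartate (T166D), which mimics the phosphorylated residue. All 3 genotypes received the same treatment: 4 days of induction with 850 nM insulin, 1 nM triiodothyronine, 0.5 mM IBMX, 125 nM indomethacin and dexamethasone in medium with 10% serum, then insulin and triiodothyronine only, with a change of medium every 2 days. Each genotype had 4 libraries. The sources used here do not say whether the 4 came from separate animals or cultures, and if they did not, the p-values below measure only the spread between these samples.

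Wnt proteins are secreted, lipid-modified signals that bind Frizzled receptors at the cell surface. With the co-receptors Lrp5 and Lrp6 they stabilise β-catenin, which then activates genes with TCF and LEF factors, while other ligands act through Frizzled or Ror receptors without β-catenin. Secreted frizzled-related proteins bind Wnts outside the cell, most Dickkopf proteins block Lrp5 and Lrp6, and in fat β-catenin signalling is known for holding precursors back from becoming adipocytes.

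The libraries held 16553324 to 20324286 counts each, and the members ranged from 0 counts in all to the 69906 counts of Fzd4. Of the 37 genes, 26 had 10 or more counts summed over the 12 libraries: 11 Wnt, 9 Fzd, 4 Sfrp and 2 Dkk genes. Wnt1, Wnt3a, Wnt7a, Wnt8a and Dkk4 had 0 counts, which over all libraries together allows up to 3 counts, or 0.0137 CPM, counts scaled to a common library size, for counting error only. Another 6 stayed under 10 counts, with 1 for Dkk1, 1 for Fzd6, 2 for Wnt3, 5 for Wnt7b, 5 for Wnt10a and 8 for Wnt9b. A further 8 had 16 to 81 counts in all and did not reach the level needed for a test, which asks for about 10 counts, or 0.555 CPM, in at least 4 libraries. Among them were Wnt10b with 0.0556 to 0.809 CPM, known for blocking fat cell formation, Wnt2 with 0 to 0.701 CPM and Wnt6 with 0 to 0.319 CPM. The others were Wnt4 with 0 to 0.373 CPM, Wnt8b with 0 to 0.222 CPM, Fzd9 with 0 to 0.270 CPM, Fzd10 with 0 to 0.479 CPM and Sfrp5, an inhibitor known from mature fat, with 0 to 0.586 CPM. That left 18 members tested among 15117 genes: 6 Wnt, 7 Fzd, 3 Sfrp and 2 Dkk genes. Exons of Sfrp2, Fzd5 and Wnt5a overlap antisense genes whose mean counts were 0.83, 1.33 and 0.92 per library, and the strand setting of the counting is not given in the sources used here.

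Receptors and secreted frizzled-related proteins stood far above the ligands on a scale that allows genes to be compared, CPM per kilobase of exon. In WT the 10 Fzd genes summed to 68.9 ± 1.86 CPM per kilobase and the 4 Sfrp genes to 25.9 ± 4.39 (SD, n = 4). The 19 Wnt genes summed to 2.41 ± 0.287 and the 4 Dkk genes to 1.31 ± 0.262. Among receptors Fzd4, which also serves as the receptor of Norrin in the retina, led with a mean of 47.5 CPM per kilobase over the 12 libraries, followed by Fzd1 at 9.46, Fzd7 at 6.22, Fzd2 at 4.15, Fzd8 at 2.38, Fzd5 at 1.27 and Fzd3 at 0.513. This order held in all 12 libraries, except that Fzd7 exceeded Fzd2 in 11 of 12. Across libraries, the ranges of Fzd1 and Fzd7 and those of Fzd7 and Fzd2 overlapped, and those of Fzd4 and Fzd1 did not. Sfrp2 at 28.5 CPM per kilobase stood above Sfrp1 at 12.1 in all 12 libraries, although their ranges overlapped, and both were far above Sfrp4 at 0.112 and Sfrp5 at 0.0894. Dkk3 at 1.87 CPM per kilobase exceeded Dkk2 at 0.312 in all 12 libraries.

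**Figure D1:**
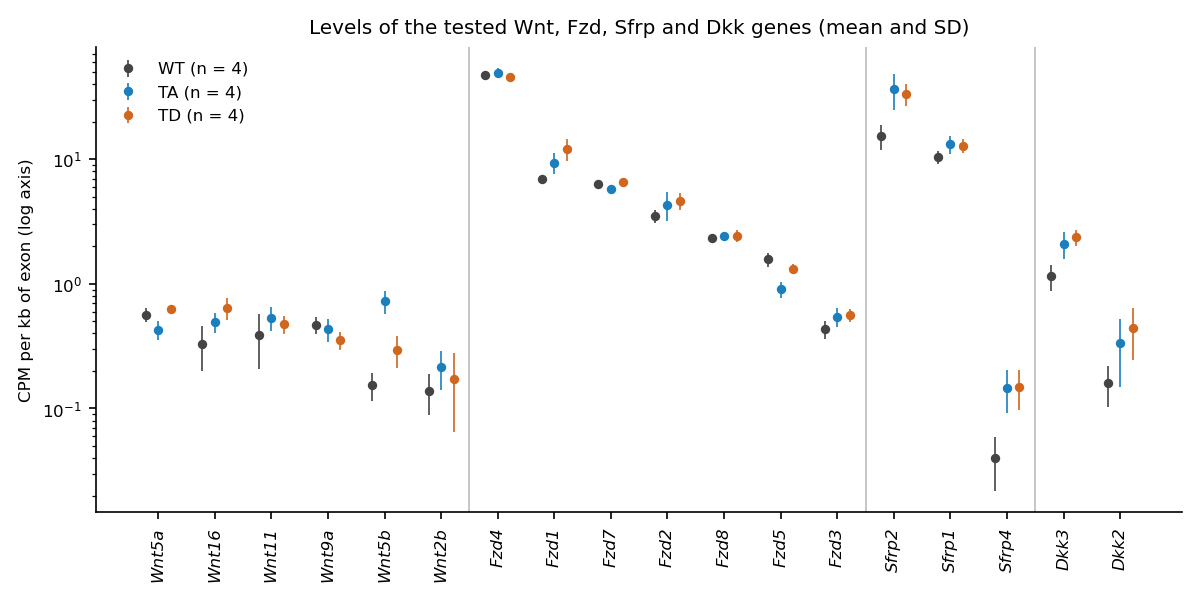
Levels of the 18 tested members, in CPM per kilobase of exon on a log axis, with a point for the mean of 4 libraries of each genotype and a bar for the SD. Fzd4 and Sfrp2 stand highest, the means of the 6 ligands all lie below 1 CPM per kilobase, and Wnt5b is the ligand whose genotypes stand farthest apart.

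TD adipocytes had 6 of the 18 tested members higher than WT and 0 lower at an adjusted p under 0.05. These were Sfrp2, Sfrp4, Dkk3, Dkk2, the receptor Fzd1 and the ligand Wnt16. Of all genes tested, 15.1% were called higher in TD against WT and 14.2% lower, and the median log2 fold change was 0.34 over the members against 0.01 over all genes. In TA, 5 members were higher than WT (Sfrp2, Sfrp4, Dkk3, Fzd1 and Wnt5b) and 1 was lower (Fzd5), with 6.72% of all genes called higher, 4.41% lower and medians of 0.40 over the members and -0.01 over all genes. Between the mutants, Fzd5 and Wnt5a were higher and Wnt5b was lower in TD than in TA, where 7.33% of all genes were called higher and 9.37% lower, with medians of 0.03 over the members and 0.02 over all genes. In all, 9 members were called in at least 1 comparison. The share of all genes called in at least 1 comparison was not counted. The 3 calls between the mutants became 5 with library totals in place of TMM scaling and 1 without TD replicate 3. Sfrp4 and Wnt5b reached the level needed for a test in 0 WT libraries, and Dkk2 and Wnt2b in 2, so these 4 were tested because of the groups in which they were high. Of the other 14, which reached it in all 12 libraries, 4 were higher and 0 lower in TD, and 3 were higher and 1 lower in TA, each against WT. The share called among all genes that reached it in all 12 libraries was not counted. The median log2 fold changes of these 14 against WT were 0.30 in TD and 0.32 in TA. Both comparisons against WT use the same 4 WT libraries. In bulk RNA, fewer cells of a type and less RNA per cell cannot be told apart.

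**Figure D2:**
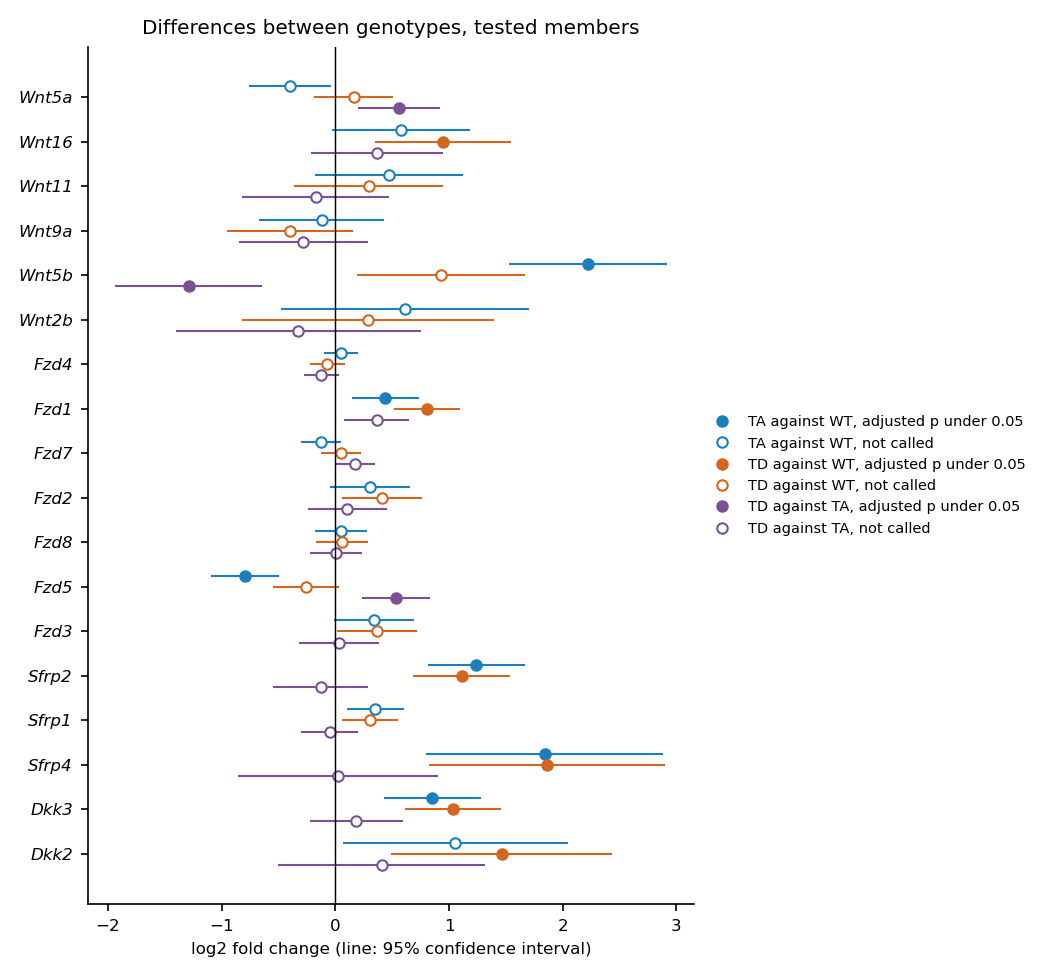
Log2 fold changes of the 18 tested members in TA against WT, TD against WT and TD against TA, with lines for 95% confidence intervals and filled points for an adjusted p under 0.05. The Sfrp and Dkk genes at the bottom lie to the right of 0 in both mutants against WT, while Wnt5b and Fzd5 separate TA from the other genotypes.

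The DNA upstream of 6 of these genes is shown because PPARγ binds DNA and the changed residue lies in its DNA-binding domain. They are all the members that were called in a mutant against WT and had an entry in the promoter table. RefSeq's promoter table, build GRCm38.p6, matched 25 of the 37 symbols with 28 start sites. Each line gives the 250 bases before a start, written 5′ to 3′ on the gene's strand. Capitals mark AGGTCA, the core that nuclear receptors bind, or CTTTGA, a core of TCF and LEF sites, on either strand.
Sfrp2 (chr3:83766071-83766320, + strand): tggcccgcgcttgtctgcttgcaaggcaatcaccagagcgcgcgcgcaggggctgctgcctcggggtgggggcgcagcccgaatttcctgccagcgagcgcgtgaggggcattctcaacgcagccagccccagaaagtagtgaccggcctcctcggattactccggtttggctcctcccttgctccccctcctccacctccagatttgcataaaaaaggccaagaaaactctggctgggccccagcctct
Dkk2 (chr3:132085042-132085291, + strand): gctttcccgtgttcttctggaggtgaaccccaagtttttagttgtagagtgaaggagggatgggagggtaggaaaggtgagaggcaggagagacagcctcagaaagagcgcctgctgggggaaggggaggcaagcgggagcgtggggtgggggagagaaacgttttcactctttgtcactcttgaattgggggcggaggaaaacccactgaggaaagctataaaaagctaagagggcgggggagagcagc
Fzd1 (chr5:4758217-4758466, - strand): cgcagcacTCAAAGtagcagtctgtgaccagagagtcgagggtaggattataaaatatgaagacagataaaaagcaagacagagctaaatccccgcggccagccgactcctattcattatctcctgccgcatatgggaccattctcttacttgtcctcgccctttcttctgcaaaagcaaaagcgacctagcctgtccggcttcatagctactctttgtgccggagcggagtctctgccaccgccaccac
Wnt16 (chr6:22287977-22288226, + strand): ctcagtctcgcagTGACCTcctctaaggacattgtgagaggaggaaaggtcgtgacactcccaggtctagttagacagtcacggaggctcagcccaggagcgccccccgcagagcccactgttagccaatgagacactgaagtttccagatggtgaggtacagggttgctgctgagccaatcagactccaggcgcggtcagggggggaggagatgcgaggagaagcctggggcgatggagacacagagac
Wnt5b, annotated gene start (chr6:119544348-119544597, - strand): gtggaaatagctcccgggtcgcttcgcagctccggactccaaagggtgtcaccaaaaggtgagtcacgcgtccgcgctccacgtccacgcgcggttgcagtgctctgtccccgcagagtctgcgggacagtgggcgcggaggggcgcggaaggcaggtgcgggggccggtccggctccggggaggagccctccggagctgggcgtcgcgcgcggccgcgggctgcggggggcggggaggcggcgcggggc
Wnt5b, start with a match (chr6:119449387-119449636, - strand): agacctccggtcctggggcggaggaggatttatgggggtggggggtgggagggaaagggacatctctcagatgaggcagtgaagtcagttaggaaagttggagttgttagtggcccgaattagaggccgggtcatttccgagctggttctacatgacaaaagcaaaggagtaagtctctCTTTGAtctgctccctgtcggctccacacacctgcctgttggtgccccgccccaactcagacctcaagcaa
Fzd5 (chr1:64737751-64738000, - strand): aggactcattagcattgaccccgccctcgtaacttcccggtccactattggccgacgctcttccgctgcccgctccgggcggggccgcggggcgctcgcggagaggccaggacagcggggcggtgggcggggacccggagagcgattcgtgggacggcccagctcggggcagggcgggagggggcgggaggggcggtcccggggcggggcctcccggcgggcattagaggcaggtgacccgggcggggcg
The letters AGGTCA, or TGACCT for the other strand, were found in 1 of the 28 member windows, that of Wnt16, where the match begins 237 bases before the start, against 14.0% of 32851 promoters. Direct repeats of AGGTCA with 1 base between, the element to which PPARγ binds with RXR, were in 0 of the 28 windows. They were in 0.0335% of promoters, so rare that 0 in 28 says nothing about these genes. Variant letters and sites beyond the 250 bases were not searched. CTTTGA, or TCAAAG for the other strand, was in 4 member windows, those of Dkk1, Fzd1, Wnt11 and 1 of the Wnt5b starts, against 13.8% of promoters. The match lies 242 bases before the Fzd1 start and 71 bases before that Wnt5b start. Wnt5b has 3 starts in the table, of which the window at the annotated gene start and the one not shown hold no match, and the counts per gene do not say which start was used. A match describes these letters only and was not tested for binding.

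Among the inhibitors, Sfrp2, a secreted frizzled-related protein made by mesenchymal cells, rose in both mutants. The gene (ENSMUSG00000027996) lies at chr3:83766321-83774316 on the + strand of GRCm38. Its level was 30.8, 44.1, 31.4 and 26.9 CPM in WT, 79.8, 50.7, 111 and 73.3 CPM in TA, and 58.0, 64.6, 73.9 and 91.6 CPM in TD. Each mutant library exceeded each WT library, and TA replicate 3 was the highest of all. Means were 33.3 ± 7.50 CPM in WT, 78.7 ± 24.9 in TA and 72.0 ± 14.6 in TD (SD, n = 4). TA was 2.36-fold above WT (log2 1.24, SE 0.20, adjusted p = 0.000753) and TD 2.16-fold (log2 1.11, SE 0.20, adjusted p = 0.000828). The mutants did not differ by the test, with a 95% interval of -0.54 to 0.29 for the log2 fold change of TD against TA. Sfrp1, the close relative of Sfrp2, ran from 39.1 to 51.9 CPM in WT, 49.2 to 71.2 in TA and 48.5 to 62.3 in TD. It did not pass the test in TA (log2 0.35, 95% interval 0.10 to 0.60, adjusted p = 0.065) or in TD (log2 0.30, 95% interval 0.05 to 0.55, adjusted p = 0.0627). Per kilobase, the ratio of Sfrp2 to Sfrp1 was 1.21 to 1.73 in WT, 1.86 to 3.17 in TA and 2.11 to 3.00 in TD. Sfrp2 thereby made up 59.4% of the summed Sfrp level in WT, 72.3% in TA and 71.6% in TD.

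Sfrp4 was rare and rose in both mutants. The gene (ENSMUSG00000021319) lies at chr13:19623104-19632994 on the + strand. It had 2, 2, 5 and 4 counts in WT, 6, 8, 15 and 14 in TA, and 6, 12, 12 and 15 in TD. Each mutant library had more than each WT library. In CPM the means were 0.168 ± 0.0771 in WT, 0.614 ± 0.231 in TA and 0.626 ± 0.221 in TD (SD, n = 4). The log2 fold change was 1.84 in TA (SE 0.49, adjusted p = 0.0229) and 1.86 in TD (SE 0.49, adjusted p = 0.00948). Sfrp4 reached the level needed for a test in 0 WT, 2 TA and 3 TD libraries, so it was tested only because the mutants were high. In TA the call was lost without WT replicate 1 (adjusted p = 0.072), WT replicate 2 (0.0633), TA replicate 3 (0.0679) or TA replicate 4 (0.0595). The gene was not tested when 10 counts were asked of every library, nor in a fit of WT with only 1 mutant. Alternatives that could test it numbered 12 for TA and 13 for TD, and the call was lost in 4 and 0 of them.

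Dkk3, a divergent Dickkopf protein that does not act on Lrp5 and Lrp6 as its relatives do, also rose in both mutants. The gene (ENSMUSG00000030772) lies at chr7:112116017-112159057 on the - strand. It measured 2.80, 5.02, 3.91 and 3.78 CPM in WT, 6.32, 5.53, 9.46 and 6.72 in TA, and 6.24, 8.46, 8.73 and 8.44 in TD. All 8 mutant libraries lay above the WT libraries, and TD replicate 1 lay below the rest of its group. The means were 3.88 ± 0.906 CPM in WT, 7.01 ± 1.71 in TA and 7.97 ± 1.16 in TD (SD, n = 4). The log2 fold change was 0.85 in TA (SE 0.20, adjusted p = 0.0111) and 1.04 in TD (SE 0.20, adjusted p = 0.00126). TD against TA gave 0.18 with a 95% interval of -0.23 to 0.59.

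Dkk2, which binds Lrp5 and Lrp6, was scattered within both mutants. The gene (ENSMUSG00000028031) lies at chr3:132085292-132180304 on the + strand. It measured 0.830, 0.695, 0.347 and 0.493 CPM in WT, 1.87, 0.676, 1.78 and 0.611 in TA, and 2.21, 1.56, 2.13 and 0.645 in TD. TA replicates 2 and 4 and TD replicate 4 fell within the WT range. TD was called higher than WT (log2 1.46, SE 0.46, adjusted p = 0.0243), while TA was not (log2 1.06, 95% interval 0.06 to 2.05, adjusted p = 0.168). The call in TD was lost without WT replicate 3 (adjusted p = 0.0683), WT replicate 4 (0.0628), TD replicate 1 (0.0661) or TD replicate 3 (0.0742), and the gene was not tested when 10 counts were asked of every library. With Dkk1 at 1 count and Dkk4 at 0, the Dickkopf transcripts of these cells were Dkk3 and Dkk2.

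**Figure D3:**
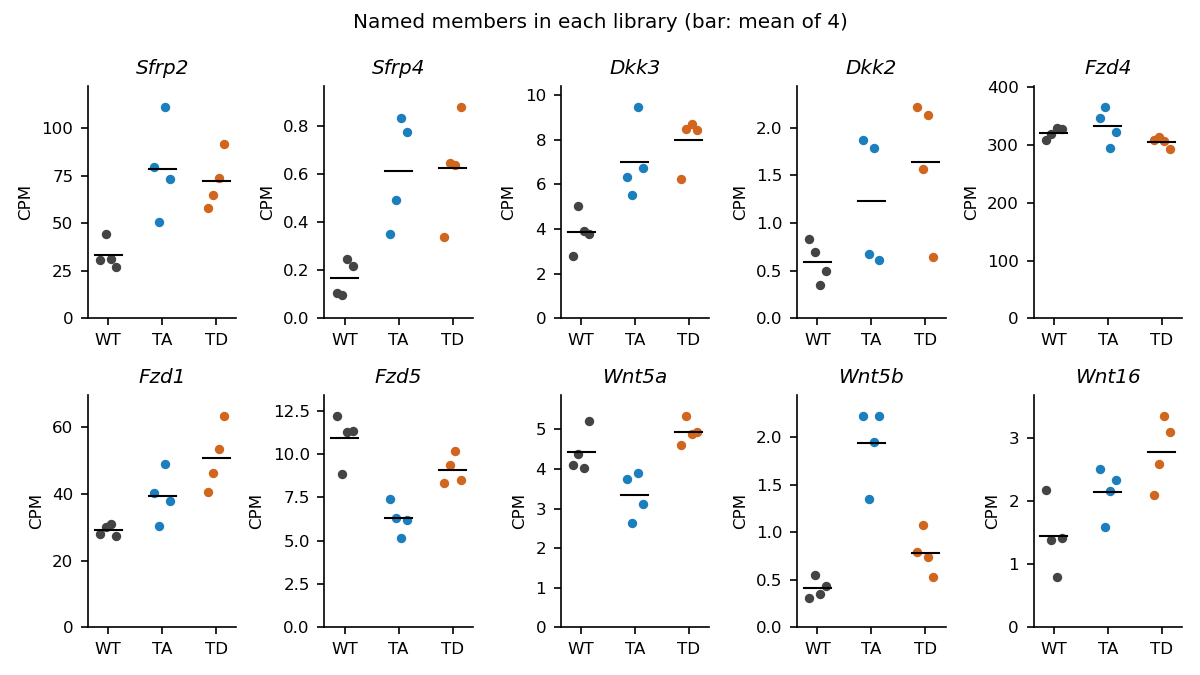
Level in CPM of 10 members in each library, with a point per library and a bar for the mean of the 4 libraries of a genotype. Each axis starts at 0, and in the panels of Sfrp2, Sfrp4 and Dkk3 all points of TA and TD lie above those of WT.

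At the receptors, the most abundant gene was not called, and Fzd1 rose. Fzd1 (ENSMUSG00000044674) lies at chr5:4753839-4758035 on the - strand. Fzd4 measured 309, 318, 330 and 326 CPM in WT, 346, 365, 295 and 322 in TA, and 308, 313, 306 and 293 in TD. The genotypes overlapped, and neither mutant passed the test, with 95% intervals of -0.10 to 0.20 in TA and -0.23 to 0.08 in TD for the log2 fold change against WT. Fzd1, a receptor close in sequence to Fzd2 and Fzd7, measured 28.0, 29.9, 30.8 and 27.3 CPM in WT, 40.3, 30.4, 48.9 and 37.9 in TA, and 40.4, 46.1, 53.3 and 63.2 in TD. Each TD library lay above each WT library, whereas TA replicate 2 fell within the WT range. Fzd1 was 1.75-fold higher in TD than in WT (log2 0.81, SE 0.14, adjusted p = 0.000557). In TA it was 1.36-fold higher (log2 0.44, SE 0.14, adjusted p = 0.0496), close to the threshold. That call held without TA replicate 2 but was lost without any other of the 8 libraries, with adjusted p from 0.0748 to 0.154, and also with library totals in place of TMM scaling (0.0655). TD against TA gave 0.36 (SE 0.14, adjusted p = 0.0762), which passed with library totals (0.0443), without the filter on low counts (0.0019), without TA replicate 3 (0.0139) and without TD replicate 1 (0.0302). Fzd4 made up 69.3% of the summed receptor level per kilobase in WT, 67.7% in TA and 62.2% in TD.

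Fzd5 fell in TA. The gene (ENSMUSG00000045005) lies at chr1:64730558-64737751 on the - strand. It measured 12.2, 8.84, 11.2 and 11.3 CPM in WT, 7.43, 6.33, 5.18 and 6.22 in TA, and 8.35, 9.38, 10.2 and 8.50 in TD. The TA libraries lay below all the others, and the TD range overlapped that of WT. TA fell by 0.79 on the log2 scale against WT (SE 0.14, adjusted p = 0.00159), and TD stood 0.53 above TA (SE 0.14, adjusted p = 0.0177). TD against WT was -0.26 with a 95% interval of -0.55 to 0.03 (adjusted p = 0.17). Without TD replicate 3 the difference between the mutants was 0.47 and missed the threshold (adjusted p = 0.0635). Fzd8, the receptor closest to Fzd5, kept a range of 12.3 to 16.6 CPM over all libraries, with 95% intervals of -0.18 to 0.28 in TA and -0.17 to 0.29 in TD. Fzd7 ran from 24.7 to 32.2 CPM (95% intervals -0.30 to 0.05 in TA and -0.12 to 0.23 in TD), Fzd2 from 11.0 to 20.98 CPM and Fzd3 from 4.41 to 7.96 CPM. In TD against WT, Fzd2 had a log2 fold change of 0.41 (adjusted p = 0.0726) and Fzd3 one of 0.37 (adjusted p = 0.106).

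The ligands were low in all genotypes, and their order per kilobase differed in TA. In WT, Wnt5a, a ligand that acts mainly without β-catenin, led the 11 ligands per kilobase in 3 of 4 libraries with a mean of 0.565 ± 0.0696 CPM per kilobase. In TA, Wnt5b, its closest relative, led in 4 of 4 libraries at 0.730 ± 0.155 (SD, n = 4), while in WT it was the fifth by its mean at 0.155 ± 0.0396. In TD, Wnt16 at 0.639 ± 0.128 and Wnt5a at 0.631 ± 0.0387 each led in 2 of 4 libraries, and Wnt5b was the fifth. Wnt5b exceeded Wnt5a per kilobase in 4 of 4 TA libraries, by 1.47 to 2.11 times. It did so in 0 of 4 WT and 0 of 4 TD libraries, where the ratio was 0.224 to 0.368 and 0.316 to 0.595. The order in TA rests on the exon lengths used, 7823 bases for Wnt5a and 2654 for Wnt5b. Without division by length, Wnt5a stood above Wnt5b in TA, at 2.64 to 3.90 CPM against 1.35 to 2.22 CPM. Over all 12 libraries the ranges of neighbouring ligands in the order Wnt5a, Wnt16, Wnt11, Wnt9a and Wnt5b overlapped.

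Wnt5b had the largest fold change against WT among the 18 tested members. The gene (ENSMUSG00000030170) lies at chr6:119432531-119544347 on the - strand. It measured 0.311, 0.546, 0.347 and 0.438 CPM in WT, 2.22, 1.35, 1.95 and 2.22 in TA, and 0.795, 1.08, 0.745 and 0.528 in TD. All TA libraries lay above all others, and only TD replicate 4 fell within the WT range. TA was 4.66-fold above WT (log2 2.22, SE 0.33, adjusted p = 0.000321), and TD fell by 1.29 against TA on the log2 scale (SE 0.31, adjusted p = 0.00928). Leaving out any library kept the TA against WT difference between 2.11 and 2.39. TD against WT was 0.93 (95% interval 0.19 to 1.67) and missed the threshold at an adjusted p of 0.0561, which it passed with library totals (0.0435), without WT replicate 2 (0.0461) and without TD replicate 4 (0.0494). Wnt5b reached the level needed for a test in 0 WT, 4 TA and 3 TD libraries, so it too was tested only because the mutants were high, and it was not tested when 10 counts were asked of every library.

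Wnt5a was higher in TD than in TA. The gene (ENSMUSG00000021994) lies at chr14:28504750-28527448 on the + strand. It measured 4.10, 4.37, 4.01 and 5.21 CPM in WT, 3.74, 2.64, 3.90 and 3.11 in TA, and 4.60, 5.34, 4.90 and 4.92 in TD. TA libraries were lower than all the others, and WT and TD overlapped. TD exceeded TA by 0.56 on the log2 scale (SE 0.17, adjusted p = 0.0335), while TA against WT, at -0.40 (95% interval -0.76 to -0.04), did not pass (adjusted p = 0.152). The call between the mutants was lost without the filter on low counts (adjusted p = 0.0829), with only these genotypes in the fit (0.0516), and without TA replicate 2 (0.108), TA replicate 4 (0.0676), TD replicate 2 (0.0846), TD replicate 3 (0.0719) or TD replicate 4 (0.0751). Without TD replicate 3, Wnt5b was the 1 member called between the mutants.

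Wnt16 is a ligand known for limiting bone resorption. The gene (ENSMUSG00000029671) lies at chr6:22288227-22298522 on the + strand. It measured 2.18, 1.39, 0.793 and 1.42 CPM in WT, 2.52, 1.60, 2.17 and 2.33 in TA, and 2.10, 2.59, 3.35 and 3.11 in TD. WT replicate 1 reached into the range of both mutants. TD was 1.93-fold above WT (log2 0.95, SE 0.28, adjusted p = 0.019), and TA did not pass (log2 0.58, 95% interval -0.03 to 1.18, adjusted p = 0.225). The call in TD was lost without WT replicate 3 (adjusted p = 0.0534), TD replicate 3 (0.0631) or TD replicate 4 (0.055). Wnt11, a ligand of cell polarity, ran from 0.942 to 2.62 CPM, Wnt9a, known from joint formation, from 1.00 to 1.81 CPM, and Wnt2b from 0.0568 to 1.17 CPM. None of these 3 ligands was called by the quasi-likelihood test in a comparison, and their 95% intervals in TD against WT were -0.36 to 0.95, -0.96 to 0.16 and -0.82 to 1.40.

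Other genes of the pathway were followed in 6 lists of 72 genes, of which 56 were tested. In TD, 13 were higher and 4 lower than WT with a median log2 fold change of 0.10, in TA 3 were higher and 3 lower with a median of 0.10, and TD against TA had 7 higher and 5 lower with a median of 0.09. As shares of the 56, TD had 23.2% higher and 7.14% lower than WT, beside 15.1% and 14.2% of all genes. TA had 5.36% in each direction beside 6.72% and 4.41%, and TD against TA had 12.5% and 8.93% beside 7.33% and 9.37%. The counts in TA and between the mutants depended on individual libraries and on the fit. With only the genotypes compared in the fit they were 2 and 7. TA against WT gave 3 without WT replicate 3 and 2 without WT replicate 4, and TD against TA gave 7 without TA replicate 2, TD replicate 2, TD replicate 3 or TD replicate 4.

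Of the surface partners, 6 of 10 tested were higher and 1 lower in TD against WT, beside 15.1% and 14.2% of all genes. In TA 0 were called, beside 6.72% and 4.41% of all genes. Ror1 and Ror2, the receptor tyrosine kinases that bind Wnt5a, were among those higher in TD. Ror1 measured 24.0, 34.3, 37.7 and 27.9 CPM in WT, 34.7, 23.9, 40.9 and 26.3 in TA, and 47.0, 53.4, 55.8 and 65.7 in TD. The TD libraries stood above all others, with a log2 fold change of 0.84 against WT (SE 0.16, adjusted p = 0.00131) and 0.82 against TA (SE 0.16, adjusted p = 0.00309). Ror2 rose by 1.06 against WT (SE 0.20, adjusted p = 0.000981) and by 0.61 against TA (SE 0.19, adjusted p = 0.0407). The co-receptor Lrp5 was 0.36 higher in TD than in WT (SE 0.09, adjusted p = 0.00539), while Lrp6 gave 0.19 (adjusted p = 0.0939), and neither was called in TA.

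Among 4 tested secreted modulators outside the families, 2 were higher in TD than in WT and 1 in TA, beside 15.1% and 6.72% of all genes. Draxin, a secreted Wnt antagonist that binds Lrp6, measured 8.30, 11.2, 13.5 and 8.44 CPM in WT, 32.5, 19.4, 40.0 and 29.2 in TA, and 25.1, 27.9, 38.2 and 41.3 in TD. All mutant libraries exceeded all WT libraries, by 1.55 in TA (SE 0.21, adjusted p = 0.00018) and 1.67 in TD (SE 0.21, adjusted p = 0.000106) on the log2 scale. Rspo3, which strengthens Wnt signals through Lgr receptors, rose in TD from a range of 2.28 to 4.21 CPM in WT to 7.06 to 8.41 CPM (log2 1.39, SE 0.21, adjusted p = 0.000251) and by 0.90 against TA (SE 0.21, adjusted p = 0.00745). In ligand maturation 2 of 5 genes were lower in TD than in WT and the same number lower than in TA, beside 14.2% and 9.37% of all genes. Porcn, the enzyme that attaches the lipid to Wnts, was lower in TD by 0.80 on the log2 scale against TA, from 122 ± 28.7 to 70.2 ± 4.38 CPM (adjusted p = 0.00083).

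Inside the cell, Ctnnb1, which encodes β-catenin, was at 372 ± 12.0 CPM in WT, 418 ± 14.1 in TA and 401 ± 22.1 in TD and was not called, with log2 fold changes of 0.17 in TA (adjusted p = 0.125) and 0.11 in TD (adjusted p = 0.252). Of 21 tested genes of the relay and destruction complex, 2 rose and 1 fell in TD, and 0 rose and 2 fell in TA, each against WT. In TD these were 9.52% and 4.76% of the 21, beside 15.1% and 14.2% of all genes. In TA they were 0% and 9.52%, beside 6.72% and 4.41% of all genes. Axin2, a part of that complex and a common readout of β-catenin activity, measured 3.06, 3.62, 3.47 and 3.62 CPM in WT, 2.22, 2.28, 1.34 and 2.61 in TA, and 3.18, 3.29, 3.46 and 3.11 in TD. TA libraries were below all others, at -0.70 against WT (SE 0.21, adjusted p = 0.0369), and TD was 0.63 above TA (SE 0.21, adjusted p = 0.0495). Both adjusted p-values lay close to the threshold of 0.05. Of 9 tested common targets, 1 rose and 2 fell in TA, 0 were called in TD against WT, and 2 were higher in TD than in TA. As shares these were 11.1% and 22.2% in TA and 22.2% between the mutants, beside 6.72%, 4.41% and 7.33% of all genes. In TA against WT, 5 of the 9 had a positive log2 fold change, with a median of 0.25 beside -0.01 over all genes. Myc, another target, fell by 0.32 in TA (SE 0.09, adjusted p = 0.033) and was 0.48 higher in TD than in TA (SE 0.09, adjusted p = 0.00221), and Ccn5 rose by 0.42 in TA (SE 0.10, adjusted p = 0.00968). Of 12 tested nuclear partners, 3 were higher in TD and 1 in TA than in WT, beside 15.1% and 6.72% of all genes. Tle2, a corepressor, was above WT by 1.03 in TD (SE 0.21, adjusted p = 0.00178) and by 0.78 in TA (SE 0.21, adjusted p = 0.0236).

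**Figure D4:**
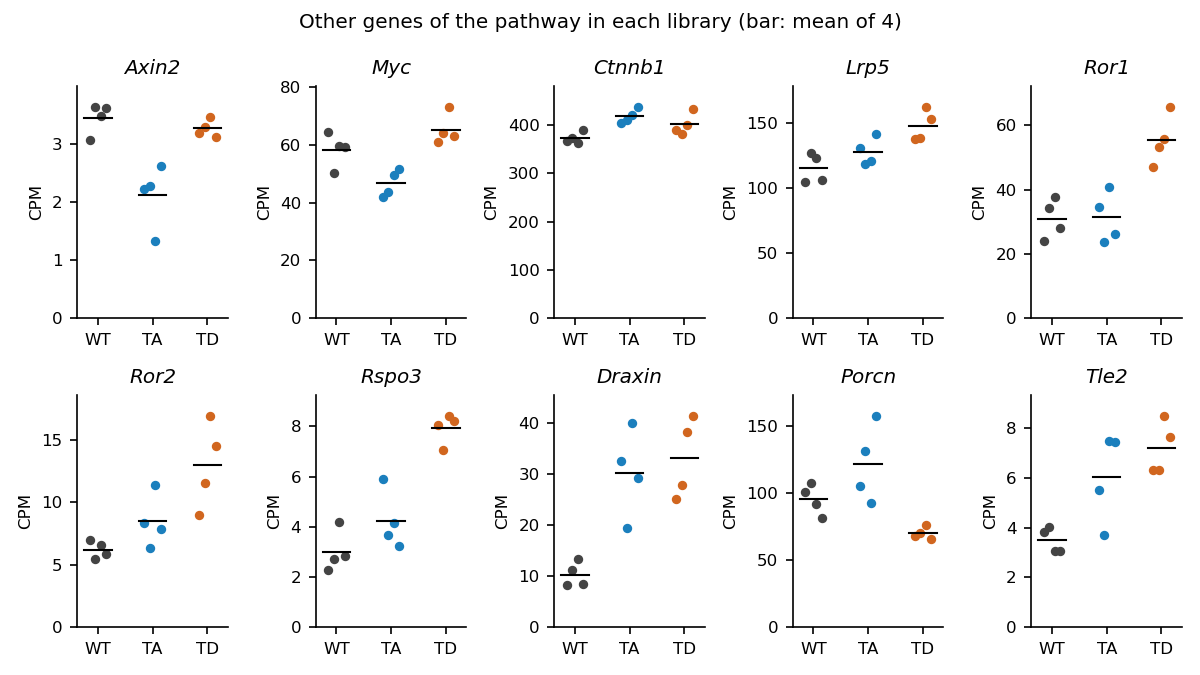
Level in CPM of 10 further genes of the pathway in each library, with a point per library and a bar for the mean of 4. Axes start at 0. Axin2 is lowest in the TA libraries, Ror1 and Rspo3 are highest in the TD libraries, and Draxin is higher in all mutant libraries than in WT.

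Markers of adipocytes and of their precursors differed between the genotypes in the same libraries. The 10 adipocyte markers, none of them at 0, summed to 20065 to 22382 CPM in WT, 18895 to 23931 in TA and 14139 to 15946 in TD. Of the 10, 8 fell in TD against WT, beside 14.2% of all genes. In TA 1 rose and 1 fell, beside 6.72% and 4.41% of all genes. Adipoq, which encodes the hormone adiponectin, was 729 ± 71.1 CPM in WT, 803 ± 65.9 in TA and 600.4 ± 40.0 in TD, and Pparg itself was 354 ± 19.9, 374 ± 46.1 and 237 ± 24.2. The 12 preadipocyte and fibroblast markers, with Dlk1 at 0 except for TA, where its mean was 0.0146 CPM, summed to 10210 to 13558 CPM in WT, 11491 to 20603 in TA and 17741 to 25925 in TD. Of 11 tested, 9 were higher in TD and 7 in TA than in WT, and 4 were higher in TD than in TA. Of all genes, 15.1%, 6.72% and 7.33% were higher in these comparisons. Pdgfra, the receptor that marks precursors, rose from 188 ± 11.4 CPM in WT to 316 ± 93.5 in TA and 447 ± 67.3 in TD (log2 0.75 and 1.25 against WT, adjusted p = 0.00567 and 0.00011). In TA, replicate 2 had the lowest and replicate 3 the highest sum of precursor markers, and the same held for Sfrp2, Dkk3, Fzd1 and Wnt5a among the 10 members given by library. Fzd4 and Fzd5 went the other way and were lowest of TA in replicate 3, at 295 and 5.18 CPM. In TD, replicate 4 had the highest sum and also the highest Sfrp2, Sfrp4 and Fzd1 among those 10. That replicate also had the lowest Dkk2, Wnt5b and Fzd4 of TD, at 0.645, 0.528 and 293 CPM. Wnt5a did not rise in TA against WT. The part of adipocytes and precursors in the differences of these members between genotypes was not tested.

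Other cell types were also measured, and their part was not tested either. The 6 endothelial markers summed to 25.3 to 53.9 CPM in WT, 46.9 to 83.0 in TA and 95.2 to 120 in TD. The 12 skeletal muscle markers, with Pax7 at 0 in every library, summed to 6.34 to 14.3 CPM in WT, 20.3 to 75.8 in TA and 20.6 to 285 in TD, where replicate 3 was highest. The 8 macrophage markers summed to 273 to 805, 135 to 588 and 623 to 869 CPM, and the 5 mesothelial markers stayed at 1.11 to 4.80 CPM over all libraries. In TD against WT, 5 of 6 tested endothelial, 9 of 9 tested muscle, 1 of 8 macrophage and 0 of 2 tested mesothelial markers were higher. The macrophage share was 12.5%, and 15.1% of all genes were higher. In TA against WT the numbers were 3, 5, 0 and 0, beside 6.72% of all genes. Without TD replicate 3, Sfrp2, Sfrp4, Dkk3 and Fzd1 kept their call in TD against WT, and Dkk2 (adjusted p = 0.0742) and Wnt16 (adjusted p = 0.0631) lost it.

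**Figure D5:**
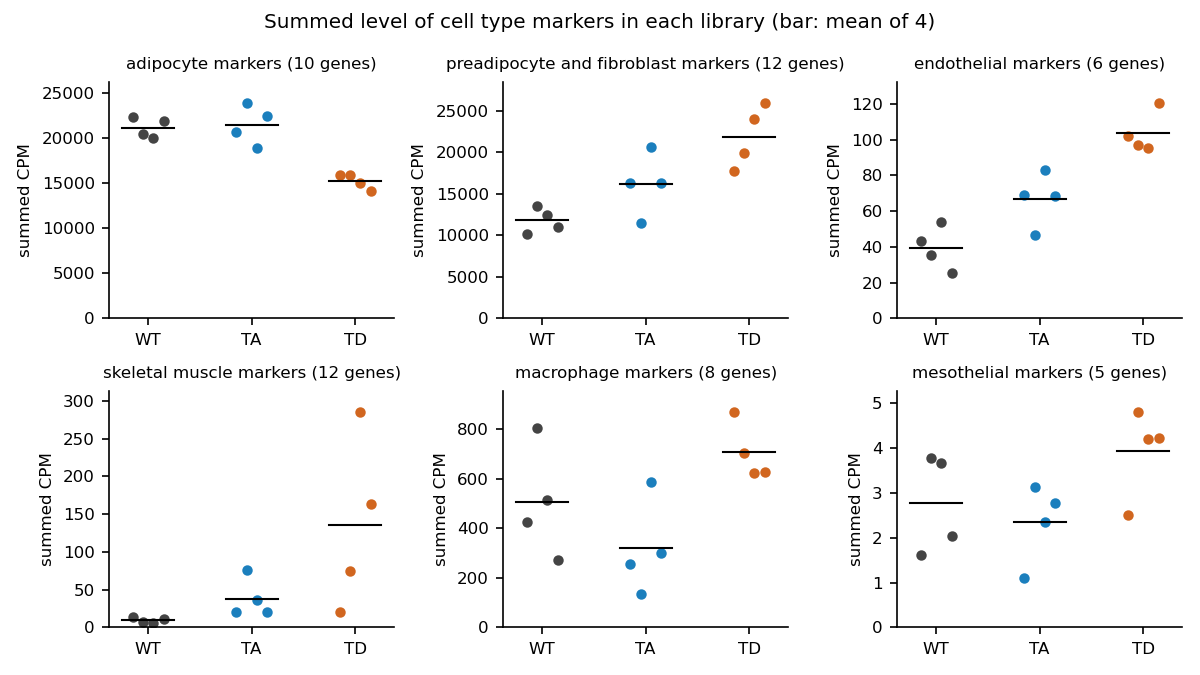
Summed level in CPM of 6 lists of cell type markers in each library, with a point per library and a bar for the mean of 4. Axes start at 0. Adipocyte markers are lowest in the TD libraries, and endothelial markers are highest there, while the precursor marker ranges of TA and TD overlap.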

How the data were processed

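RNA-seq counts of 12 libraries, 4 each of WT, TA and TD, were analysed. Per the labels and methods, the authors trimmed reads with cutadapt 1.9.1, aligned them to GRCm38 with HISAT2 2.0.1 and deposited raw read counts per gene made with HTSeq 0.6.1, without normalization. Groups were taken from the sample labels. The table and the library files held equal counts. The members and lists were chosen with earlier results of these data known.

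Genes were kept by filterByExpr (minimum count 10, minimum total 15), which left 15117 genes, and were scaled by TMM (factors 0.957 to 1.04). The quasi-likelihood test of edgeR 4.0.16 in R 4.3.3 was fitted to all 12 libraries, with two-sided p-values adjusted by Benjamini-Hochberg over all genes tested. An adjusted p under 0.05 was a call. No covariate was used, as the study states none. The steps were tested on simulated data. CPM were scaled by the normalized library size, and levels per kilobase used GENCODE M21 exon lengths, which held 55394 of the 55573 identifiers. Values in every library are given for members called in any comparison and for the most abundant member of each class, and by their range for the others. Genes of the pathway lists are given where they were among the 5 largest called changes of a comparison, with Ctnnb1, Axin2, Lrp5 and Lrp6 always. Motifs were searched by exact letters. The alternatives were DESeq2 1.42.0, its size factors in edgeR, library totals, no filter, a stricter filter, only the 2 genotypes compared, a replicate block and leaving out each library. Replicates differed by more than counting noise, with a chi-square per degree of freedom of 4.67 to 35.3 over 18 pairs.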

Additional observations from a re-analysis of the deposited data

Results flagged for a closer look

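Among the 30 groups of 4 libraries checked for the 10 members given library by library, 1 held a value far from the others: Dkk3 in TD replicate 1, at 6.245 CPM, where the other TD libraries lay between 8.44 and 8.73 CPM. Its gap took up 0.885 of the range of the group, above Dixon's critical value for 4 samples. By chance about 1 group in 20 would stand out this way. The value still lay above all WT libraries.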

How the results depend on the processing

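Of 15 fold changes called for the named members, 9 stayed called under each alternative that could test them, 28 of their 217 alternative values missed the threshold, and 0 changed direction. Calls among the members numbered 4 to 9 for TD and 4 to 7 for TA over the alternatives, where the comparison with WT gave 6 each. In TD against TA, the 3 calls became 5 with library totals and ranged from 1 to 4 when a library was left out. Of the pathway genes, the 6 calls in TA against WT became 2 with only the genotypes compared and ranged from 2 to 6 when a library was left out. The 12 in TD against TA became 7 with only those genotypes and ranged from 7 to 13 when a library was left out. The cause was not tested. Directions that turned belonged to fold changes that were never called: leaving out libraries gave -0.0015 to 0.10 for Fzd4 in TA against WT, -0.28 to 0.082 for Sfrp2 and -0.18 to 0.22 for Sfrp4 in TD against TA. Asking for 10 counts in every library left Dkk2, Sfrp4, Wnt5b and Wnt2b without a test. Sfrp4 also had no test in a fit of WT with only 1 mutant. Same-numbered libraries did not deviate together (correlations from -0.237 to 0.196 over 12 pairs), so the numbers were not taken as pairs. With the replicate number as a block, 2 members were called in TD against TA, Wnt5a was lost (adjusted p = 0.0574), and the pathway calls were 17 for TD and 4 for TA when set against WT and 10 between the mutants. Depth limits the rare members: 8 with 10 or more counts, of which 5 were ligands, could not be tested.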
